A study of Mus musculus with 8 samples.

Results

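Acyl-CoA thioesterases, vanins and the pantothenate kinase Pank1 were followed in primary mouse kidney proximal tubule cells given an agonist of the bile acid receptor FXR. The 10 genes were Acot1, Acot2, Acot3, Acot4, Acot5, Acot12, Acot13, Vnn1, Vnn3 and Pank1. They were found by matching the transcript accession of every non-control probe to these symbols, which gave 12 of the 39429 probes on the array, with a pair of probes each for Acot3 and Acot5 and a single probe for each other gene. The genes had been chosen by their GW4064 to DMSO difference on these same arrays, so that difference is given for them as a description, and how many lay past a threshold is no test of the set.

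The 4 GW4064 samples were cells given 1 uM GW4064, a synthetic FXR agonist, for 24 h, and the 4 DMSO samples were cells given its solvent for the same time. All 8 came from the kidney cortex of 6 weeks old C57/BJ male mice, were grown to confluence as primary culture and were treated in serum-free medium. RNA was hybridised to one-colour arrays, on which the spot brightness stands for the amount of transcript. The tubule pellet was described by the submitters as mostly renal tubules, so other cells may remain, and whether a group's samples were from different animals or cultures is not recorded in the labels. In such samples, fewer cells of a type and less RNA per cell cannot be told apart.

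Acyl-CoA thioesterases split the thioester bond between a fatty acyl group and coenzyme A and release the free acid and CoA. The mouse type I enzymes are encoded by a cluster of neighbouring genes and work in different compartments, with Acot1 in the cytosol, Acot2 in mitochondria and Acot3, Acot4 and Acot5 in peroxisomes. Acot12 and Acot13 belong to the structurally unrelated type II enzymes. Vanins are pantetheinases, which split pantetheine, a breakdown product of CoA, into cysteamine and pantothenate, and pantothenate kinases phosphorylate pantothenate at the rate-controlling step of new CoA synthesis. Several of these genes are known targets of the fatty acid receptor PPAR-alpha in mouse liver.

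The promoters of the type I cluster are shown because these neighbouring genes ran from the narrowest to the widest fitted gene difference of the set. They are taken from RefSeq on build GRCm38.p6, cover 250 bases before and 50 bases from the annotated start, and matched 8 of the 10 genes. Letters run from 5′ to 3′ on the coding strand. Capitals mark AGGTCA, the core hexamer that many nuclear receptors recognise, on either strand. For Acot3 and Acot5, which have a pair of annotated starts in the table, the more upstream is shown.
Acot2, chr12:83987611-83987910, plus strand: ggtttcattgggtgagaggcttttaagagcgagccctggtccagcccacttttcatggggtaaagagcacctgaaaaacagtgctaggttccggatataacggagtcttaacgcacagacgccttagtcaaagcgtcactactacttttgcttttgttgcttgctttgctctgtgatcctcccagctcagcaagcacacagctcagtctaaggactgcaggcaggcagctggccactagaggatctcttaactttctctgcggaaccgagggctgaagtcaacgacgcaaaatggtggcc
Acot1, chr12:84009252-84009551, plus strand: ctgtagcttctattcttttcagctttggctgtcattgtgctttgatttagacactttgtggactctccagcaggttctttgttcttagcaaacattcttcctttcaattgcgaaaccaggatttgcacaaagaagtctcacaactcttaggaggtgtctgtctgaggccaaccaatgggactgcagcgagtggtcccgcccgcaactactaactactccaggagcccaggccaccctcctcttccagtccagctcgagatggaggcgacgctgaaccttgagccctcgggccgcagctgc
Acot4, chr12:84038129-84038428, plus strand: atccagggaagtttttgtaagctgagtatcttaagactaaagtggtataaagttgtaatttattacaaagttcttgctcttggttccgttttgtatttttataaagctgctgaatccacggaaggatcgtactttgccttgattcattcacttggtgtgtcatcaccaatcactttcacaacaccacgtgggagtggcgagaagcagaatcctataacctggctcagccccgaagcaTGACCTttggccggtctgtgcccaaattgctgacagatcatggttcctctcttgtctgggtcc
Acot3, chr12:84051894-84052193, plus strand: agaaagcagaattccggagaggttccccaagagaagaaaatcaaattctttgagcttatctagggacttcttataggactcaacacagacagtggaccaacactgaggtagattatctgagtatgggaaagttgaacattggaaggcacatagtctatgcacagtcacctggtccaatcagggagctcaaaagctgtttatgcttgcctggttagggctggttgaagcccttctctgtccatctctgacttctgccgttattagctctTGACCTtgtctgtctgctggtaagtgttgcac
Acot5, chr12:84069074-84069373, plus strand: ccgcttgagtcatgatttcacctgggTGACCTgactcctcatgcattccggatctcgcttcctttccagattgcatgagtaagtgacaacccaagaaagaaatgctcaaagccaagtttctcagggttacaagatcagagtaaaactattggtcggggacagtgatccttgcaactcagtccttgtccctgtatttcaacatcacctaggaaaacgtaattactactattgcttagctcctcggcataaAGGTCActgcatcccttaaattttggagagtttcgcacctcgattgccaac
The hexamer occurred in the windows of Acot4, Acot3 and Acot5, and also in that of Acot12, and in 16.2% of 32544 promoter windows of this length. It did not occur in the windows of Acot2, Acot1, Vnn3 or Pank1. In Acot4 it lay from 13 to 8 bases before the start on the minus strand. The direct repeat of the hexamer and its inverted repeat, each with 1 base of any kind between the copies and searched on both strands, occurred in 0 of these 8 genes, and in 13 and 3 of all windows. These matches describe letters only, and each repeat holds the hexamer itself.

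GW4064 samples had more signal for nearly all measured genes of the set. Of the 10 genes, 9 had a probe well above background on at least 4 of 8 arrays and were fitted, and Vnn3 was not. Of these 9, 8 lay past the threshold used for all 14487 genes (limma, adjusted p of 0.05), which the choice of genes by this contrast had favoured, and all 8 were higher with GW4064, beside a background of 11.8% of genes called higher. The groups did not overlap for the same 8, beside 26.1% of all genes without overlap and 15% without overlap and higher. By probe, 10 of 11 were called higher and their groups did not overlap, beside 8.43% of all probes called higher and 23.1% without overlap (15.4% were called in either direction). At least 2-fold higher were 4 genes, Acot3, Acot4, Acot5 and Vnn1, beside 1.01% of all genes. Acot2 was the gene not past it. The median difference of the 9 was 0.83 on the log2 scale, against 0.01 over all genes. Because this contrast was known when the genes were chosen, and the filter kept only genes with enough signal, these counts describe the set and support nothing further. With normexp background correction 1 gene of the set and 119 genes in all were called, and with outlying local backgrounds replaced (chosen after seeing the data) 8 and 2156.

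**Figure D1:**
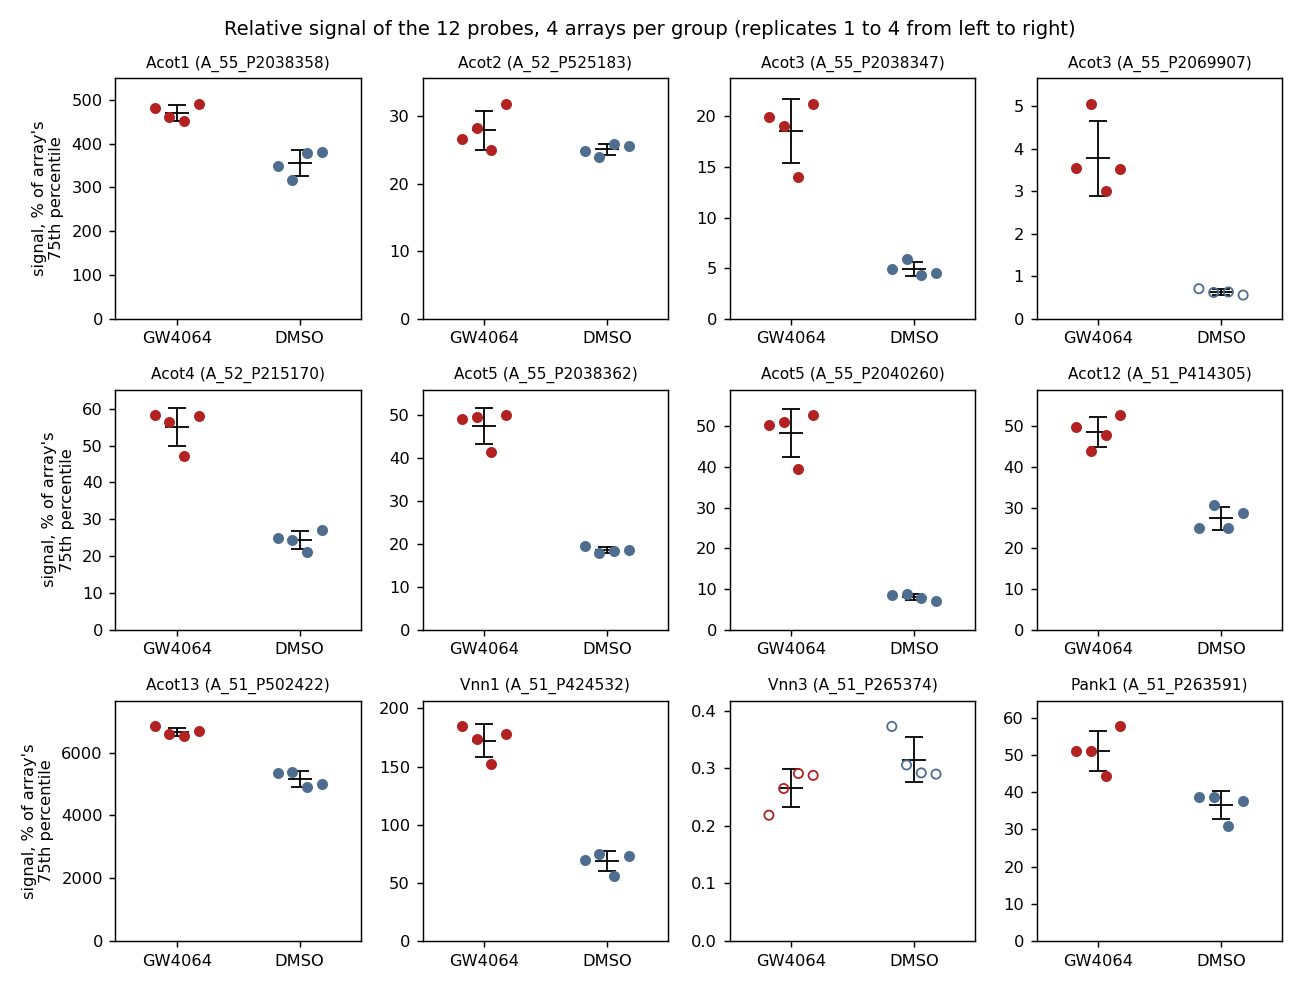
Signal of each of the 12 probes as a percent of its array's 75th percentile (y axis, linear from 0), with the 4 GW4064 arrays in red left of the 4 DMSO arrays in blue. Black bars give the mean and SD, and open circles are spots not well above background. The red and blue points are apart in 10 panels and overlap for Acot2 and Vnn3.

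Levels below are the processed signal as a percent of the array's 75th percentile, listed for replicates 1 to 4. Brightness also depends on each probe's own sequence, so levels of different probes were not compared. Differences are on the log2 scale, GW4064 minus DMSO, with the standard error (SE) of the limma fit over 24735 probes and n = 4 arrays per group.

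The peroxisomal enzymes Acot3, Acot5 and Acot4 had wider differences than the other cluster genes. Acot3, an enzyme of medium- and long-chain acyl-CoAs, had 19.9, 19.1, 14.04 and 21.2% of the 75th percentile on the GW4064 arrays, against 4.86, 5.87, 4.29 and 4.52% on the DMSO arrays with probe A_55_P2038347. Every GW4064 array was above every DMSO array, and the lowest GW4064 value was that of replicate 3. The difference was 1.92 ± 0.15, or 3.78-fold. The other Acot3 probe, A_55_P2069907, had 3.55, 5.05, 2.998 and 3.52% of the 75th percentile on the GW4064 arrays, against 0.705, 0.616, 0.628 and 0.554% on the DMSO arrays. It was well above background on all 4 GW4064 arrays and on 0 of 4 DMSO arrays, so it entered the fit through the GW4064 group alone. The measured ratio by this probe was 5.95-fold, which rests on DMSO values not well above background and is no lower bound. With normexp background correction the Acot3 differences were 0.57 and -0.03 for these probes. With local backgrounds marked as outliers replaced they were 1.24 and 0.80. The size for this dim gene, and the sign for probe A_55_P2069907, therefore depended on the background setting.

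Acot5, a peroxisomal enzyme of medium-chain acyl-CoAs in mouse, had 49.1, 49.6, 41.3 and 49.9% of the 75th percentile on the GW4064 arrays, against 19.6, 17.8, 18.4 and 18.66% on the DMSO arrays with probe A_55_P2038362. The difference was 1.35 ± 0.07, or 2.55-fold, and the groups lay far apart. Probe A_55_P2040260 of the same gene had 50.3, 50.9, 39.5 and 52.6% of the 75th percentile on the GW4064 arrays, against 8.51, 8.84, 7.77 and 7.09% on the DMSO arrays. Its difference was 2.58 ± 0.11, or 5.98-fold, so the pair of probes agreed in direction and differed in size. The files hold no probe sequences. The type I genes are close paralogs, and whether a probe also binds transcripts of its neighbours was not tested.

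Acot4, which in mouse acts on succinyl-CoA and other dicarboxylic acyl-CoAs, had 58.2, 56.5, 47.3 and 57.9% of the 75th percentile on the GW4064 arrays, against 24.99, 24.3, 21.1 and 27.1% on the DMSO arrays. The groups did not overlap, and replicate 3 was again the lowest of the GW4064 arrays. The difference was 1.18 ± 0.09, or 2.26-fold.

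The cytosolic and mitochondrial members of the cluster differed less. Acot1, the cytosolic long-chain enzyme, had 482, 461, 451 and 490.2% of the 75th percentile on the GW4064 arrays, against 349, 317, 378 and 381% on the DMSO arrays. The GW4064 arrays were all above the DMSO arrays, and the difference was 0.41 ± 0.07, or 1.33-fold. By slide it was 0.50 on slide 1 and 0.31 on slide 2. Acot2, the mitochondrial enzyme, had 26.6, 28.2, 25.02 and 31.8% of the 75th percentile on the GW4064 arrays, against 24.9, 24.00, 25.9 and 25.5% on the DMSO arrays. GW4064 replicate 3 lay within the DMSO range, and the difference of 0.15 ± 0.07 did not reach the threshold used for the count.

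**Figure D2:**
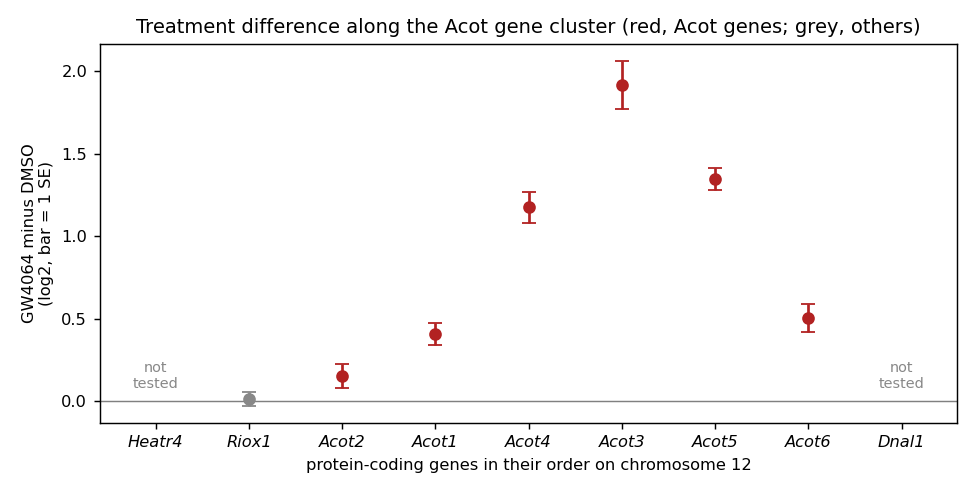
Log2 difference between GW4064 and DMSO (y axis, bar 1 SE of the gene fit, n = 4 arrays per group) for the protein-coding genes of the Acot cluster in chromosome order (x axis). Acot3 (1.92), Acot5 (1.35) and Acot4 (1.18) stand above Acot6 (0.51), Acot1 (0.41), Acot2 (0.15) and the flanking gene Riox1 (0.01).

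In chromosome order on chromosome 12 the protein-coding genes ran Acot2, Acot1, Acot4, Acot3, Acot5 and Acot6. Acot6, which is not among the 10 genes and encodes another peroxisomal enzyme, rose by 0.51 ± 0.08 (limma, adjusted p = 0.00436). It had 9.99, 10.96, 8.46 and 10.72% of the 75th percentile on GW4064 arrays, against 7.18, 7.08, 7.39 and 6.52% on DMSO arrays, without overlap. Riox1, the neighbour before Acot2, had a difference of 0.01 ± 0.04 (limma, adjusted p = 0.857) and did not pass. Dnal1, after Acot6, and Heatr4 were not tested. Counted by position, 14 genes within 2 places of the 5 loci were tested, and 6 of them were higher and 2 lower, beside 11.8% and 8.95% of all genes. The 2 lower were Atg10 near Acot12 at -0.28 ± 0.05 and Ifit1 near Pank1 at -1.18 ± 0.34 (limma, adjusted p = 0.00528 and 0.0435). The widest of the 14, chosen after its value was seen, was D130043K22Rik, 2 places from Acot13, at 1.54 ± 0.13 (limma, adjusted p = 1.09e-04).

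The type II thioesterases were also brighter with GW4064. Acot12, a cytosolic acetyl-CoA hydrolase, had 49.9, 44.02, 47.8 and 52.7% of the 75th percentile on the GW4064 arrays, against 25.01, 30.8, 24.9 and 28.8% on the DMSO arrays. The difference was 0.83 ± 0.09, or 1.78-fold, and by slide 0.76 on slide 1 and 0.91 on slide 2. Acot13, a long-chain enzyme associated with mitochondria, had 6834, 6602, 6528 and 6689% of the 75th percentile on the GW4064 arrays, against 5363, 5382, 4918 and 4989% on the DMSO arrays. It had a small difference of 0.37 ± 0.04, or 1.29-fold, with narrow groups that did not overlap and no saturated spot.

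Vnn1, the membrane-anchored pantetheinase, had 185, 174, 153 and 178% of the 75th percentile on the GW4064 arrays, against 69.9, 74.8, 55.8 and 72.9% on the DMSO arrays. The groups did not overlap. The difference was 1.34 ± 0.10, or 2.53-fold, and by slide 1.31 on slide 1 and 1.37 on slide 2. Vnn3, its neighbour on chromosome 10, was well above background on 0 of 8 arrays, with 0.219, 0.265, 0.291 and 0.288% of the 75th percentile on the GW4064 arrays, against 0.373, 0.306, 0.292 and 0.290% on the DMSO arrays, and no fold is given. Pank1, on chromosome 19, had 50.97, 51.1, 44.3 and 57.7% of the 75th percentile on the GW4064 arrays, against 38.7, 38.8, 30.9 and 37.7% on the DMSO arrays. Its groups did not overlap, DMSO replicate 3 was the lowest array, and the difference was 0.48 ± 0.10, or 1.40-fold.

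**Figure D3:**
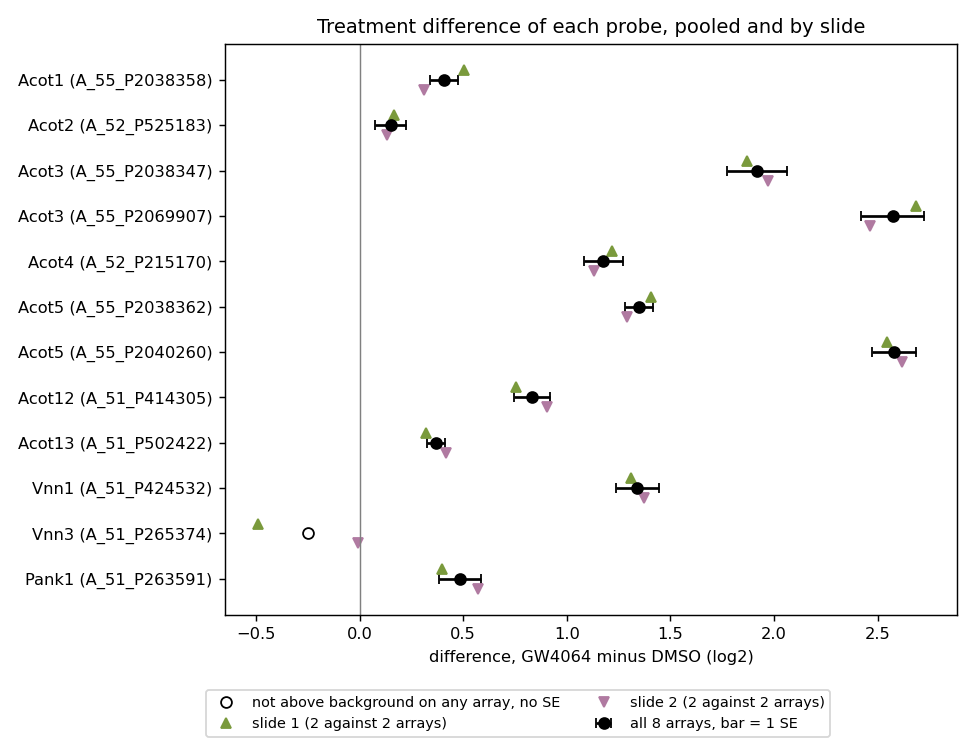
Log2 difference between GW4064 and DMSO (x axis) of the 12 probes (y axis) over all 8 arrays (black, bar 1 SE of the probe fit, n = 4 arrays per group) and on each slide alone (triangles, 2 against 2 arrays). Vnn3 (open circle) has no SE. All probes but that of Vnn3 lie above 0 on both slides, from 0.13 for Acot2 on slide 2 to 2.68 for the dim Acot3 probe on slide 1.

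Each of the 2 slides carried 2 GW4064 arrays and 2 DMSO arrays and was scanned on its own. Each of the 11 fitted probes had a difference above 0 on both slides. DMSO arrays always took the first 2 places of a slide, so place and treatment cannot be told apart. Among the GW4064 arrays, replicate 3 gave the lowest value for 10 of the 11 fitted probes, where it was the lowest of the 4 for 24.9% of all genes and for 35.6% of the genes called higher. With that array left out, the differences were 1.25 for Acot4, 2.05 for Acot3 (probe A_55_P2038347) and 1.40 for Vnn1.

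As a check of the agonist, the bile acid exporter subunits Slc51a and Slc51b rose by 6.91 ± 0.16 and 3.40 ± 0.07 on the log2 scale, and Nr1h4, which encodes FXR, fell by 0.45 ± 0.05 (limma, adjusted p = 1.43e-07, 1.43e-07 and 3.03e-04). Fabp6, which binds bile acids inside cells, was well above background on all 4 GW4064 arrays and on 0 of 4 DMSO arrays. It had 84.8, 89.7, 78.0 and 73.8% of the 75th percentile on GW4064 arrays, against 1.54, 0.271, 1.09 and 0.605% on DMSO arrays. The measured ratio of 112-fold rests on DMSO values not well above background and is no lower bound. No p-value is given for this gene, because that would rest on the spread of DMSO signals too dim to measure. The 75th percentile of signal was 1412 ± 207 (SD, n = 4) on GW4064 arrays and 1626 ± 187 (SD, n = 4) on DMSO arrays. The share of probes well above background was 61.5% to 65.7%, and the number of arrays limits the precision.

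The other thioesterases and related acyltransferases went both ways. Of 14 listed genes 13 were tested, 3 rose, 3 fell and 7 did not pass, with a median difference of 0.08. The called share was 46.2%, beside 20.8% of all genes. Besides Acot6, the peroxisomal acyltransferase Acnat1 rose by 0.36 ± 0.08 and the lysosomal thioesterase Ppt2 by 0.25 ± 0.06 (limma, adjusted p = 0.0164 and 0.0244). Acnat2, the paralog of Acnat1, fell by 1.09 ± 0.27, Acot11 by 0.36 ± 0.07 and Them4 by 0.18 ± 0.05 (adjusted p = 0.0229, 0.0101 and 0.0351 in limma). Acnat1 and Acnat2 are similar in sequence, so their signals may not be separate. Baat, which joins bile acids to taurine or glycine, had the widest difference of the list, 1.72 ± 0.52, and did not pass (adjusted p = 0.0505). Its values were 1.99, 2.34, 9.23 and 2.60% on GW4064 arrays, against 0.734, 1.98, 0.912 and 0.709% on DMSO arrays, with 1 of 4 DMSO arrays well above background, and its difference was 0.84 on slide 1 and 2.61 on slide 2. Without DMSO replicate 4, 3 genes of the list passed. Acot7, Acot8, Acot9 and Acot10 had differences of -0.10, 0.21, -0.08 and -0.07 and did not pass.

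In CoA synthesis, transport and breakdown, 4 of 13 tested genes rose, 0 fell and 9 did not pass. The called share was 30.8%, all of it higher, beside 11.8% of all genes called higher and 20.8% called in either direction. The rises were small. Ppcs, which follows pantothenate kinase in CoA synthesis, rose by 0.26 ± 0.04, the pantothenate and biotin transporter Slc5a6 by 0.24 ± 0.04, the peroxisomal CoA-splitting enzyme Nudt19 by 0.30 ± 0.06 and the mitochondrial CoA carrier Slc25a42 by 0.26 ± 0.07 (limma, adjusted p = 0.00280, 0.00502, 0.0109 and 0.0295). The other pantothenate kinase genes Pank2, Pank3 and Pank4 had differences of 0.02 ± 0.07, -0.20 ± 0.14 and 0.02 ± 0.05 and did not pass. The list median was 0.05. Of 6 tested genes listed for cysteamine and taurine metabolism, 0 passed in limma after adjustment and 3 had an unadjusted p under 0.05. Those 3 were the flavin monooxygenase Fmo1 at 0.31 ± 0.12, the cysteine dioxygenase Cdo1 at 0.28 ± 0.12 and the taurine transporter Slc6a6 at 0.23 ± 0.08. Ado, Csad and Btd had differences of 0.01 ± 0.05, 0.04 ± 0.06 and 0.01 ± 0.06.

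Acyl-CoA synthetases, which make the substrates of the thioesterases, were called in both directions. Of 18 tested, 6 rose, 4 fell and 8 did not pass (55.6% called, beside 20.8% of all genes), with a median of 0.10. The mitochondrial medium-chain synthetase Acsm1 rose by 1.47 ± 0.17 and the short-chain family member Acss3 by 0.70 ± 0.13 (limma, adjusted p = 5.57e-04 and 0.00649). Acsf3, a malonyl-CoA synthetase, rose by 0.22 ± 0.04 (adjusted p = 0.00573 in limma). Acsl4, which prefers arachidonate, fell by 0.39 ± 0.05 (limma, adjusted p = 0.00114). The other genes that fell were Acsm2, Acss1 and Acsl1, at -0.65 ± 0.16, -0.28 ± 0.07 and -0.21 ± 0.05. Without GW4064 replicate 3 or without DMSO replicate 4, the list held 6 calls in place of 10.

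Peroxisomal oxidation genes moved little. Of 18 tested, 5 rose, 0 fell and 13 did not pass, with a median of 0.10. The called share was 27.8%, all of it higher, beside 11.8% of all genes called higher and 20.8% called in either direction. The branched-chain oxidase Acox2 rose by 0.42 ± 0.09, the bifunctional enzyme Ehhadh by 0.32 ± 0.08, the thiolases Acaa1b by 0.31 ± 0.05 and Acaa1a by 0.15 ± 0.03, and the racemase Amacr by 0.22 ± 0.05 (limma, adjusted p = 0.0112, 0.0225, 0.00557, 0.0145 and 0.0217). Acaa1a and Acaa1b are near-identical copies whose signals may not be separate. The list held 3 calls without GW4064 replicate 1 or 2 or without DMSO replicate 1.

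Other known PPAR-alpha targets were called at about the share of all genes. Of 19 tested, 3 rose, 1 fell and 15 did not pass (21.1% called, beside 20.8% of all genes), with a median of -0.01. The hormone Fgf21 rose by 1.46 ± 0.15, the lipid droplet protein Plin2 by 0.27 ± 0.05 and the pyruvate dehydrogenase kinase Pdk4 by 0.17 ± 0.05, and the trifunctional protein subunit Hadhb fell by 0.18 ± 0.05 (limma, adjusted p = 3.13e-04, 0.00483, 0.0452 and 0.0368). Cpt1a, the carnitine transferase of fatty acid entry into mitochondria, had a difference of 0.01 ± 0.05 and the omega-hydroxylase Cyp4a10 one of -0.24 ± 0.18, and neither passed. The list held 2 calls without GW4064 replicate 1, 2 or 3 or without DMSO replicate 2 or 4. Among 10 receptor and cofactor genes, Hnf4a rose by 0.85 ± 0.04, the coactivator gene Ppargc1a fell by 0.63 ± 0.08 and Pparg by 0.20 ± 0.04 (limma, adjusted p = 9.30e-06, 0.00119 and 0.00951). Ppara and Ppard, at -0.02 ± 0.07 and 0.07 ± 0.05, did not pass.

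**Figure D4:**
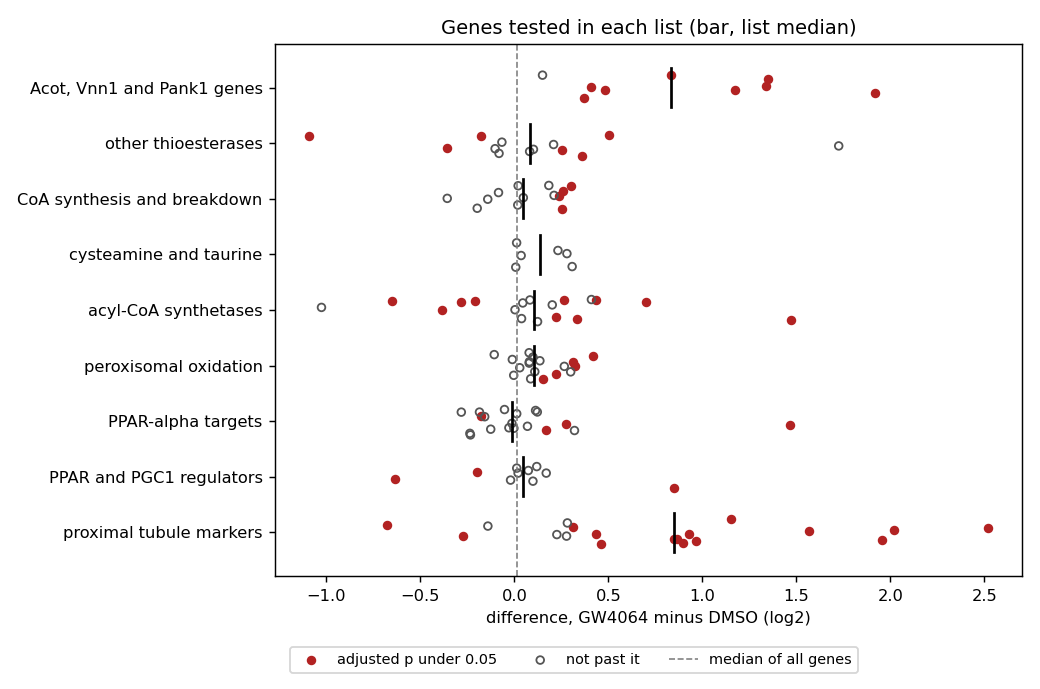
Log2 difference between GW4064 and DMSO (x axis) of every tested gene in the 10 genes, 7 companion lists and the proximal tubule marker list (y axis), filled red where the adjusted p was under 0.05 and open where not. Black bars are list medians, 0.83 for the Acot, Vnn1 and Pank1 genes and 0.85 for proximal tubule markers, with the companion lists between -0.01 and 0.13, and the dashed line is the median of all genes, 0.01.

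Several marker lists of cell types held more genes called higher than the 11.8% of all genes, and 8.95% of all genes were called lower. Of 19 tested proximal tubule markers 13 rose and 2 fell, with a median of 0.85, and their summed signal was 15794% to 18045% on GW4064 arrays and 12242% to 15865% on DMSO arrays. The sulfate transporter Slc13a1 rose by 2.52 ± 0.07, Gatm by 1.95 ± 0.10 and Ggt1 by 0.87 ± 0.05, while Kap fell by 0.68 ± 0.11 and the peptidase Mme by 0.27 ± 0.06 (limma, adjusted p = 3.66e-07, 6.86e-06, 1.79e-05, 0.00301 and 0.0107). With normexp background correction the list held 7 calls, and 15 with outlying local backgrounds replaced.

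Of 10 leukocyte markers 5 rose and 0 fell, and their sum was 1424% to 1634% with GW4064 and 1085% to 1238% with DMSO. The 5 were Csf1r at 0.75 ± 0.05, C1qb at 0.27 ± 0.06, Coro1a at 0.35 ± 0.08, Cd74 at 0.52 ± 0.13 and Tyrobp at 0.43 ± 0.12 (limma, adjusted p = 2.36e-05, 0.0140, 0.0234, 0.0243 and 0.0391). The defining marker Ptprc lay the other way without passing, at -0.90 ± 0.54 (adjusted p = 0.279 in limma), with 4.77, 5.50, 4.99 and 4.83% on GW4064 arrays, against 6.13, 5.82, 6.21 and 34.7% on DMSO arrays, DMSO replicate 4 being far above the rest. The list held 2 calls without DMSO replicate 2, and 3 without DMSO replicate 1 or without GW4064 replicate 1. It held 2 with the replicate block or without a filter on dim probes and 0 with normexp, or 5 with outlying backgrounds replaced.

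Of 8 endothelial markers 3 rose and 0 fell, namely Esam at 0.99 ± 0.06, Plvap at 0.36 ± 0.06 and Cdh5 at 0.33 ± 0.07 (limma, adjusted p = 3.18e-05, 0.00521 and 0.0166), and the sum was 602% to 677% with GW4064 and 523% to 615% with DMSO. Of 8 fibroblast and pericyte markers 3 rose and 0 fell, namely Tagln at 0.53 ± 0.10, Acta2 at 0.49 ± 0.11 and Pdgfrb at 0.33 ± 0.07 (limma, adjusted p = 0.00721, 0.0157 and 0.0116), with a sum of 7898% to 9563% with GW4064 and 5767% to 7369% with DMSO. With normexp both lists held 0 calls, and with outlying backgrounds replaced 3 each. Of 6 markers of other nephron segments 0 rose and 2 fell, Umod at -0.71 ± 0.16 and Slc12a3 at -0.77 ± 0.22 (limma, adjusted p = 0.0162 and 0.0441), with a sum of 504.4% to 653% with GW4064 and 472% to 624% with DMSO. That list held 1 call without GW4064 replicate 1, 3 or 4 or without DMSO replicate 1, 2 or 4, and 0 with either normexp setting. The defining markers Ptprc, Pecam1, Col1a1 and Umod were well above background on all 8 arrays. The part of these cells in the differences of the thioesterase and vanin genes was not tested.

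The genes closest to Acot3 in pattern over the 8 arrays were sought, Acot3 having the widest difference in the fit that takes each gene's brightest kept probe (the Acot5 probe not used there, A_55_P2040260, had 2.58). Closeness was the root mean square of the differences between log2 values, each gene centred on its own mean. The transcript 2010003K11Rik was closest at 0.05, followed by the organic anion transporter Slc22a6 (0.12), the creatine synthesis enzyme Gatm (0.13), the vitamin D hydroxylase Cyp24a1 (0.14) and the apolipoprotein Apom (0.14). Their differences between GW4064 and DMSO ran from 1.84 to 2.02, beside 1.92 for Acot3. Closeness over all 8 arrays requires a like difference, so this range was set by the search and only describes the genes found. Slc22a6 and Gatm also stood on the proximal tubule marker list.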

How the data were processed

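RNA from 8 cell samples, 4 given GW4064 and 4 given DMSO, was measured on one-colour arrays of 44397 spots, 1377 of them controls. Per the file headers, the authors' scanner software (Feature Extraction 10.7.3.1) subtracted the background, and the linear intensity it gave was used. The authors' value table was deposited on the log2 scale with a median of 6.6 per column, and the submitters' processing notes name limma. It served only as an alternative.

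Spots flagged as outliers were left out, spots of a probe were averaged, and log2 values were set relative to each array's 75th percentile. Probes well above background on at least 4 of 8 arrays were kept (24735 of 39429), and a gene was represented by its brightest kept probe. Symbols came from transcript accessions through RefSeq (GRCm38.p6), which named 27234 probes. GW4064 was compared with DMSO in limma 3.58.1 (R 4.3.3, functions lmFit and eBayes), with Benjamini-Hochberg adjustment over all genes and a threshold of 0.05. The fit was tested on simulated data. As the labels do not name separate cultures or animals, p-values cover just the spread among these arrays, possibly a technical one.

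The 10 genes and all companion lists were chosen with earlier results of these data known. Named genes were all members with every probe, up to 4 called genes of smallest p per companion list, those behind counts of 5 or fewer, the FXR check genes and the 5 genes closest to Acot3. Uncalled genes of the lists were named for their role, outside this rule and with their values seen. Samples were not paired by replicate number in the main fit. The deviations of same-numbered samples correlated above 0.1 in 1 of 4 pairs, that of replicate 3 at 0.19. Whether same-numbered samples share an origin is not recorded in the labels, and this correlation cannot decide it. Alternatives covered background correction, scaling, dim-probe filters, probe choice, slide and replicate blocks, each slide alone, the authors' table and leaving out each array.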

Additional observations from a re-analysis of the deposited data

Results flagged for a closer look

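Among 166 groups of 4 arrays, 18 held an array that stood apart from the other 3 by Dixon's criterion. This was 10.8%, where chance gives about 1 in 20. The groups were, in GW4064 or DMSO, each member probe, each called companion gene and some other named genes. They also held the FXR check genes, the genes closest to Acot3 and the mean of each list. Most genes named only as cell type markers, Ptprc among them, were not examined one by one. All values are log2 signal minus the array's 75th percentile. Replicate 3 of GW4064 was the array in 10 of the groups and replicate 3 of DMSO in 6, and both lay on the second slide.

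In the thioesterase and vanin set, GW4064 replicate 3 was low for Acot4 at -1.08 (other GW4064 arrays -0.82 to -0.78), and for Acot5 at -1.28 with probe A_55_P2038362 and -1.34 with probe A_55_P2040260. DMSO replicate 3 was low for Pank1 at -1.70 (other DMSO arrays -1.41 to -1.37).

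Elsewhere, GW4064 replicate 3 was low for Acsm1 at -0.54, Acsf3 at 2.48, Acox2 at 1.29, Ppara at -0.077, 2010003K11Rik at -2.41 and Apom at -1.07, and high for Fgf21 at -3.02. DMSO replicate 3 was low for Acnat2 at -3.95, Acox2 at 0.75, Acot10 at 0.19 and Cyp24a1 at 0.15, and high for Fgf21 at -4.31. DMSO replicate 2 was high for Acss3 at -5.20, and DMSO replicate 4 was high for Acsf3 at 2.39.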

How the results depend on the processing

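With normexp background correction, 119 genes were called (67.2% of them higher, against 56.9%), 1 of the thioesterase and vanin set and 0 each of the other thioesterases, CoA genes, acyl-CoA synthetases, peroxisomal genes and PPAR-alpha targets, with 1 regulator. Acot3 (A_55_P2069907) turned to -0.027. DMSO replicate 3 had 6 spots far below their local background, by up to -53476.5 units. Replacing outlier backgrounds, chosen after seeing the data, gave 2156 genes, 8 of the set, 2 CoA genes and 2 PPAR-alpha targets. Median centring gave 3 peroxisomal genes, and no dim-probe filter 3 other thioesterases. The replicate block gave 2324 genes, 8 of the set, 1 cysteamine gene and 3 peroxisomal genes. The slide block gave 2 PPAR-alpha targets. Slide 1 alone (2 against 2 arrays) gave 966 genes, 1 other thioesterase, 0 CoA genes, 2 synthetases, 1 peroxisomal gene, 1 PPAR-alpha target and 1 regulator. Slide 2 alone gave 220 genes, 4 of the set, 0 other thioesterases, 0 CoA genes, 1 synthetase, 0 peroxisomal genes, 0 PPAR-alpha targets and 1 regulator. Fewer arrays enter each slide's fit, and for the others the cause was not tested. Leaving out each array gave 2078 to 2825 genes, 8 to 8 of the set, 3 to 6 other thioesterases (3 without DMSO replicate 4), 3 to 5 CoA genes, 6 to 10 synthetases (6 without GW4064 replicate 3 or DMSO replicate 4), 3 to 5 peroxisomal genes (3 without GW4064 replicate 1 or 2 or DMSO replicate 1), 2 to 4 PPAR-alpha targets (2 without GW4064 replicate 1, 2 or 3 or DMSO replicate 2 or 4), 3 to 3 regulators and 0 to 0 cysteamine genes. Signal over background limits the dim Acot3 probe and Vnn3.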
